A study of Oryza sativa Japonica Group with 22 samples.

Results

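Seeds of the rice line CGS were compared with seeds of its untransformed parent, Taipei, at the milkripe stage. The comparison took every library that the labels give to these lines, which were 5 CGS libraries and 4 Taipei libraries, 9 of the 22 in the series. CGS is a single Agrobacterium transformant of Taipei, a japonica rice, that carries AtD-CGS, a feedback-desensitized cystathionine gamma-synthase of Arabidopsis with a pea chloroplast transit peptide, under the maize ubiquitin 1 promoter. Taipei carries no transgene. Because CGS is 1 line, the transgene, its site of insertion and other differences that arose with the line cannot be told apart. The SSA line, used for comparison, carries the sunflower 2S albumin gene HaSSA under a wheat glutenin promoter, and CGSxSSA, which comes from 2 segregants of a cross of CGS with SSA, carries both transgenes. The SAT line is a Taipei transformant with EcSAT, the cysE gene of Escherichia coli, under the maize ubiquitin 1 promoter. SATxSSA, from 2 segregants of a cross of SAT with SSA, carries EcSAT and HaSSA. All seeds were harvested 10 days after flowering, and each library came from a panicle of its own. The authors describe each library as the seeds of an individual plant.

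Cystathionine gamma-synthase joins cysteine to O-phosphohomoserine in the plastid and commits carbon from the aspartate pathway to methionine. The cystathionine formed is cleaved to homocysteine, which is then methylated to methionine, the precursor of S-adenosylmethionine. The native Arabidopsis enzyme is restrained when S-adenosylmethionine is plentiful, and the desensitized form lacks part of that restraint. Its cysteine comes from sulfate, which is taken up by SULTR transporters, activated by ATP sulfurylase, reduced to sulfide and built into O-acetylserine by O-acetylserine (thiol) lyase (OASTL).

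Gene-level anti-strand counts ranged from 32674435 to 37439828 in CGS libraries and from 33878151 to 35696144 in Taipei libraries. The transgene cannot be checked in these counts, since its reads have no entry in the files. Listed glutelin, prolamin and globulin genes, which mark the starchy endosperm, took 15.6% to 19.8% of gene counts in CGS and 16.4% to 19.4% in Taipei. Reads that mapped to several places made up 15.96% ± 1.16 of reads in CGS and 14.22% ± 0.418 in Taipei (SD, n = 5 and 4; exact permutation test, two-sided, p = 0.0317, adjusted p = 0.127 over 4 library measures, where 0.0159 is the smallest p that the design allows). Its part in the other results was not tested. CGS replicates 2 and 4 stood apart from CGS replicates 1, 3 and 5, and were the CGS pair most alike. Their counts differed by a chi-square of 4.62 per degree of freedom (1 is sampling noise), against 21.7 to 54.8 for the other 9 CGS pairs and 10.6 to 25.7 for the 6 Taipei pairs. They differed by more than sampling noise and were kept as separate libraries, and results are also given without both of them.

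**Figure D1:**
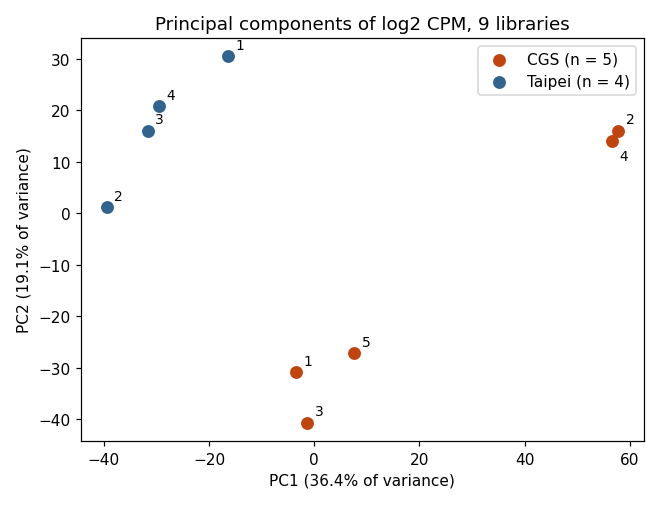
Principal components of log2 CPM (counts scaled to library size) over the 5 CGS and 4 Taipei libraries, with the replicate number beside each point. CGS replicates 2 and 4 lie at 57.7 and 56.6 on the first component (36.4% of variance), CGS replicates 1, 3 and 5 lie between -3.52 and 7.62, and the Taipei libraries lie between -39.5 and -16.4.

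In milkripe seeds, 627 genes were higher and 364 genes were lower in CGS than in Taipei (edgeR quasi-likelihood test, Benjamini-Hochberg adjusted p under 0.01, 26821 genes tested), which is 2.34% and 1.36% of the genes tested, 3.69% together. In whole seeds a change in the share of a cell type cannot be told apart from a change of RNA per cell. Most of the differences were small. Among the higher genes the median log2 fold change was 0.56, with quartiles of 0.41 and 0.80, and among the lower genes it was -0.64, with quartiles of -1.02 and -0.44. Changes of at least 1 on the log2 scale, a doubling or a halving, were found for 104 higher and 93 lower genes. The median over all genes tested was 0.01 after TMM scaling, which sets it near 0. The CGS and Taipei libraries did not overlap for 602 of the 627 higher and 351 of the 364 lower genes, where such separation was found for 11% of all genes tested.

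The share of genes called was higher at higher expression levels. Among genes whose higher group mean was under 1 CPM, 30 were higher and 25 were lower, 1.24% of 4444. Between 5 and 50 CPM the calls were 353 higher and 192 lower, 4.37% of 12478 genes. At 500 CPM or more, 8 genes were higher and 8 were lower, 8.47% of 189 genes, with a median absolute log2 fold change of 0.47. Complete absence in a line was rare. Only 3 called genes had no read in any Taipei library and 1 had no read in any CGS library, and none of these reached a mean of 1 CPM in the other line, the highest being 0.471 CPM in CGS and 0.576 CPM in Taipei.

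**Figure D2:**
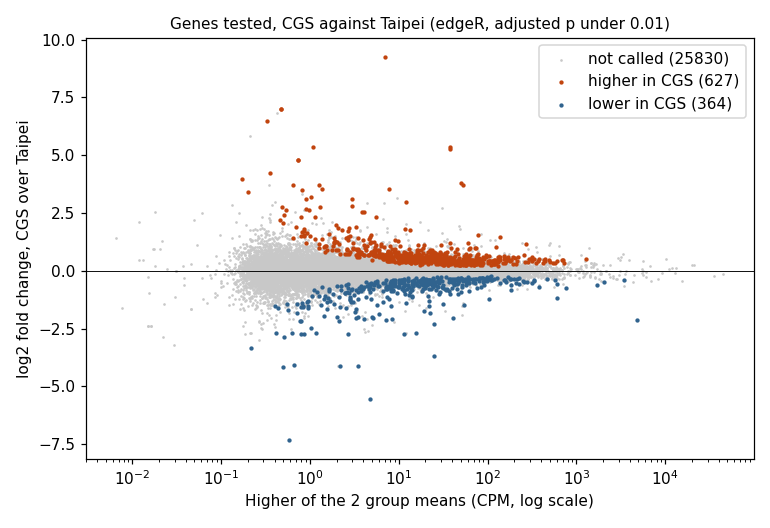
Log2 fold change of CGS over Taipei for each gene tested, against the higher of the 2 group means in CPM on a log scale. Called genes are coloured, 627 higher and 364 lower in CGS, and most lie within 1 log2 unit of 0 except at low expression.

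A fit of the 9 libraries alone, which does not share the spread of the other lines, called 243 genes higher and 124 lower, 367 in all. The number of called genes also depended on single libraries, while none of the 991 was called in the opposite direction when a library was left out. The number was 577 without CGS replicate 2, 582 without CGS replicate 4, 623 without Taipei replicate 2, 569 without Taipei replicate 3 and 493 without Taipei replicate 4. With CGS replicates 2 and 4 both left out, which was chosen after seeing the data and leaves 3 CGS libraries, 265 genes were higher and 118 were lower, and 343 of the 991 calls were kept. The shift itself was present in every CGS library. Relative to the Taipei mean, on the log2(CPM + 0.1) scale, the called higher genes had a median of 0.62 and 0.61 in CGS replicates 2 and 4, and of 0.46, 0.47 and 0.56 in CGS replicates 1, 3 and 5. For the called lower genes the medians were -0.71 and -0.73 in CGS replicates 2 and 4, and -0.51, -0.59 and -0.58 in replicates 1, 3 and 5. These genes were chosen by this contrast, so the medians describe how evenly the CGS libraries contribute and carry no test.

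Levels in the other lines separated the called genes further. All 5 CGS libraries lay above the 17 other libraries of the series for 277 of the 627 higher genes (44.2%), a position held by 1.52% of all genes tested. All 5 lay below the others for 115 of the 364 lower genes (31.6%), against 0.626% of all genes tested. The opposite arrangement, in which Taipei alone stood apart, was less frequent among the calls. The 4 Taipei libraries lay below the 18 others for 44 of the higher genes (7.02%, against 0.198% of all genes tested) and above them for 36 of the lower genes (9.89%, against 0.239%). The calls themselves favour both arrangements, so these counts are descriptions.

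The deposited counts carry identifiers without descriptions, and no annotation at hand pairs these with names, so 2 genes that rose and 2 that fell are shown by identifier. They were picked after their values were seen, among the 14 largest rises and 14 largest falls whose libraries did not overlap and whose mean reached 5 CPM in either line, to show the different arrangements across lines.

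Os01g0537250 followed the lines that carry AtD-CGS. Its level was 36.6, 35.8, 43.9, 36.1 and 37.5 CPM in CGS replicates 1 to 5, against 0.812, 0.52, 1.46 and 1.09 CPM in the Taipei libraries. All CGS libraries were high and all Taipei libraries were near 1 CPM, a 38.8-fold difference (log2 fold change 5.28 ± 0.311 SE, adjusted p = 3.23e-09). In CGSxSSA it was again high, at 39.8 ± 3.48 CPM (SD, n = 4), against 0.445 ± 0.052 CPM in SSA (n = 3; log2 fold change 6.48, adjusted p = 6.72e-09). It was also low in SAT, at 2.03 ± 1.43 CPM (n = 3), and the difference between CGS and SAT passed the test (log2 fold change 4.19, adjusted p = 1.61e-07).

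Os03g0299700 was high in every transgenic line. It had 33.9, 38.5, 40.8, 32.6 and 45.1 CPM in the CGS libraries, against 1.07, 0.611, 1.03 and 1.01 CPM in the Taipei libraries (log2 fold change 5.35 ± 0.151 SE, adjusted p = 3.65e-16). The groups did not overlap, and Taipei stood alone. The mean was 38.6 ± 3.4 CPM in CGSxSSA against 37.4 ± 3 CPM in SSA, and 42.1 ± 2.04 CPM in SAT. Its difference between CGSxSSA and SSA was 0.05 on the log2 scale, and it differed from the 5.35 of CGS against Taipei (difference -5.31, adjusted p = 6.64e-14).

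Os08g0127900 fell in CGS and had its lowest mean there. It had 1030, 772, 2081, 769 and 793 CPM in the CGS libraries, against 6010, 4958, 4572 and 3551 CPM in the Taipei libraries. Every CGS library was below every Taipei library, with CGS replicate 3 the highest of its group (log2 fold change -2.13 ± 0.311 SE, adjusted p = 0.00027). In CGSxSSA it averaged 4369 ± 1507 CPM, against 3187 ± 973 CPM in SSA, a log2 difference of 0.46 that did not pass the test. The change on the SSA background differed from that on Taipei (difference 2.59, adjusted p = 0.00882).

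Os07g0249800 fell in CGS and was also at low values in CGSxSSA. Its values were 6.5, 5.2, 9.78, 4.58 and 5.8 CPM in the CGS libraries, against 20.5, 25.4, 22 and 21.9 CPM in the Taipei libraries. The highest CGS library stayed under 10 CPM and the lowest Taipei library was above 20 CPM (log2 fold change -1.81 ± 0.166 SE, adjusted p = 5.73e-07). The mean was 8.05 ± 0.764 CPM in CGSxSSA, against 16.3 ± 3.73 CPM in SSA (log2 fold change -1.01, adjusted p = 0.0153), which does not pass the threshold. The 2 effects differed by 0.80 log2 units, a difference that did not pass the test either (adjusted p = 0.126).

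**Figure D3:**
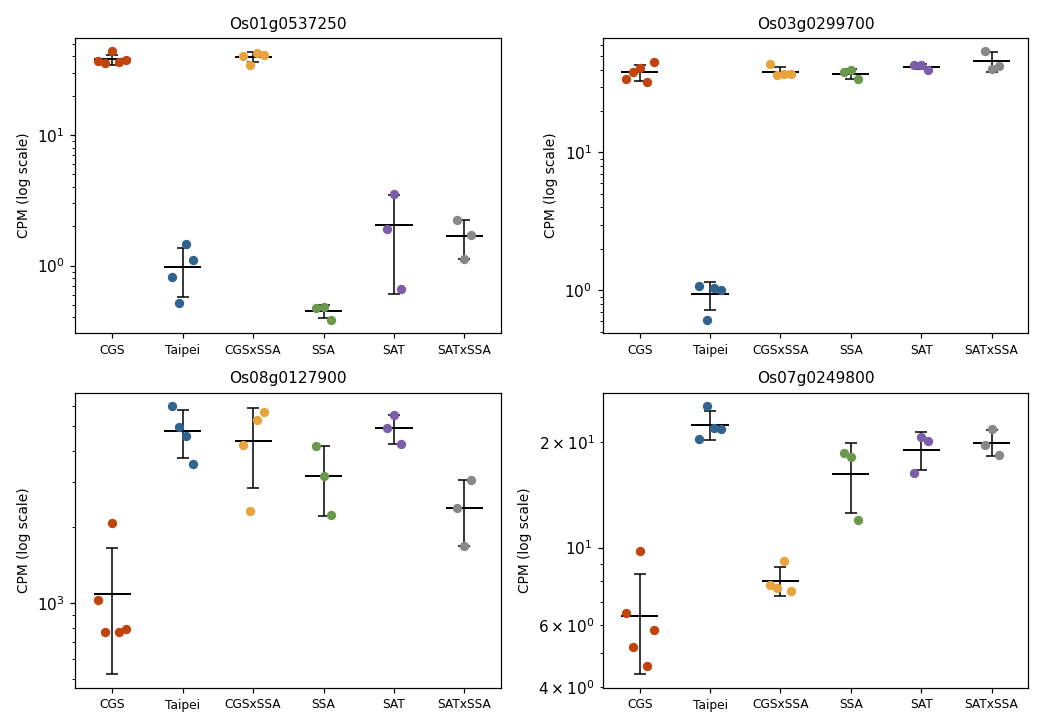
CPM on a log scale for 4 genes in every library of the 6 lines, with the mean (line) and SD (bar) of each line. Os01g0537250 is high in CGS and CGSxSSA alone, Os03g0299700 is low in Taipei alone, Os08g0127900 averages 1089 CPM in CGS against 4773 CPM in Taipei, and Os07g0249800 is low in CGS and CGSxSSA.

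Among the 14 largest rises, with log2 fold changes of 1.28 to 9.25, 9 were also called higher in CGS than in SAT. Among the 14 largest falls, with log2 fold changes of -1.52 to -3.67, 10 were also called lower in CGS than in SAT and 1 was called higher. Both sets of values use the same CGS libraries. For comparison, 2.05% of all genes tested were higher and 1.32% were lower in CGS than in SAT, 3.37% together.

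The rice genes for cystathionine gamma-synthase and serine acetyltransferase were not called. The expressed rice CGS gene, Os03g0376100, had 32, 48.2, 30.2, 47.7 and 41 CPM in the CGS libraries, against 39.1, 36.7, 38.9 and 40.9 CPM in the Taipei libraries. The Taipei values lie inside the range of the CGS values, where replicates 2 and 4 are the highest (log2 fold change 0.03, 95% confidence interval -0.24 to 0.31), and the estimate was -0.18 without them. The other rice CGS gene, Os06g0176900, was at or under 0.131 CPM in every CGS and Taipei library and was not tested. None of the 3 tested serine acetyltransferase (SAT) genes, which make O-acetylserine, was called with edgeR or DESeq2, and none had an unadjusted p under 0.05. The most read of them, Os03g0133900, averaged 53.9 CPM in CGS and 52.7 CPM in Taipei (log2 fold change 0.03, interval -0.11 to 0.18), while Os03g0196600 was at -0.26 and Os05g0533500 at 0.25.

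Cysteine formation included 1 gene that rose. OASTL Os01g0978100, one of 4 listed OASTL genes, had 58.4, 50.7, 45.1, 54.2 and 44.3 CPM in the CGS libraries, against 40.8, 34.2, 41.6 and 36.1 CPM in the Taipei libraries. Every CGS library was above every Taipei library, but the nearest values were 44.3 and 41.6 CPM (log2 fold change 0.41 ± 0.085 SE, adjusted p = 0.00441). The call was lost without CGS replicate 1, 2 or 4 or Taipei replicate 2 or 4, with adjusted p-values of 0.0104, 0.0106, 0.0141, 0.0217 and 0.0216, and also without CGS replicates 2 and 4 together (0.0361), with these summed (0.0116), in a fit of the 9 libraries alone (0.0333) and with library size in place of TMM (0.0121). In CGSxSSA it averaged 46.7 ± 1.63 CPM, against 46.1 ± 3.7 CPM in SSA, and its difference between CGS and SAT was 0.14 (adjusted p = 0.406).

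The remaining 10 sulfate assimilation genes, which include ATP sulfurylase (ATPS), adenosine phosphosulfate kinase (APK), sulfite reductase (SiR) and APR-like genes, were not called. SiR, the most read of them, averaged 119 ± 6.19 CPM in CGS and 123 ± 9.6 CPM in Taipei (log2 fold change -0.05, interval -0.24 to 0.14). ATPS was at 0.03 (interval -0.34 to 0.39), and the lowest value was -0.05 at OASTL Os04g0165700. Of the full list of 11 genes, 1 was called higher and none lower, beside 2.34% and 1.36% of all genes tested. At an unadjusted p under 0.05, 2 were higher and none was lower, beside 13.3% and 10.8%. Over the 11 genes the median log2 fold change was 0.05, beside 0.01 over all genes tested.

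Serine hydroxymethyltransferase SHM1 (Os03g0738400), which interconverts serine and glycine and supplies one-carbon units, was the other sulfur-list gene that rose. It had 268, 247, 252, 267 and 285 CPM in the CGS libraries, against 217, 188, 211 and 200.4 CPM in the Taipei libraries. The lowest CGS library was 247 CPM and the highest Taipei library 217 CPM (log2 fold change 0.37 ± 0.066 SE, interval 0.23 to 0.51, adjusted p = 0.0012). It stayed called without any single CGS or Taipei library and without CGS replicates 2 and 4 together (adjusted p = 0.00495), but not in a fit of the 9 libraries alone (adjusted p = 0.0138). Its level was also higher in CGS than in SAT (log2 fold change 0.35, adjusted p = 0.0037), while CGSxSSA averaged 216 ± 5.41 CPM, against 213 ± 19.5 CPM in SSA.

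SHM1 belongs to the list of orthologs of the OAS cluster, genes whose transcripts in Arabidopsis move together with O-acetylserine. Of the 15 listed, 14 were tested, 1 was called higher and none was called lower, beside 2.34% and 1.36% of all genes tested, with a median of 0.08. SHM2, the most read, was at 0.15 (interval -0.04 to 0.35). The largest positive estimate was at SDI1 (SULFUR DEFICIENCY INDUCED), which had 3.1, 3.77, 1.26, 5.73 and 2.49 CPM in the CGS libraries, against 4.03, 0.734, 1.4 and 2.28 CPM in the Taipei libraries. These groups overlap (log2 fold change 0.63, interval -0.84 to 2.1). LSU2 had the largest negative estimate (-0.58, interval -1.4 to 0.24). ChaCL2, a ChaC-like gene of the family that degrades glutathione, was at -0.36 (adjusted p = 0.019), with 12.1, 15.5, 11.3, 15 and 14.2 CPM in the CGS libraries, against 20.4, 15.9, 17.7 and 15.9 CPM in the Taipei libraries. The 2 groups did not overlap at ChaCL2, as for 11% of all genes tested, but the nearest values were 15.5 and 15.9 CPM. It passed the threshold with DESeq2 (adjusted p = 0.0066) and without CGS replicates 2 and 4 (adjusted p = 0.00924). Without Taipei replicate 1 its log2 fold change was -0.28 (adjusted p = 0.0817), and a fit of the 9 libraries alone gave an adjusted p of 0.0764.

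**Figure D4:**
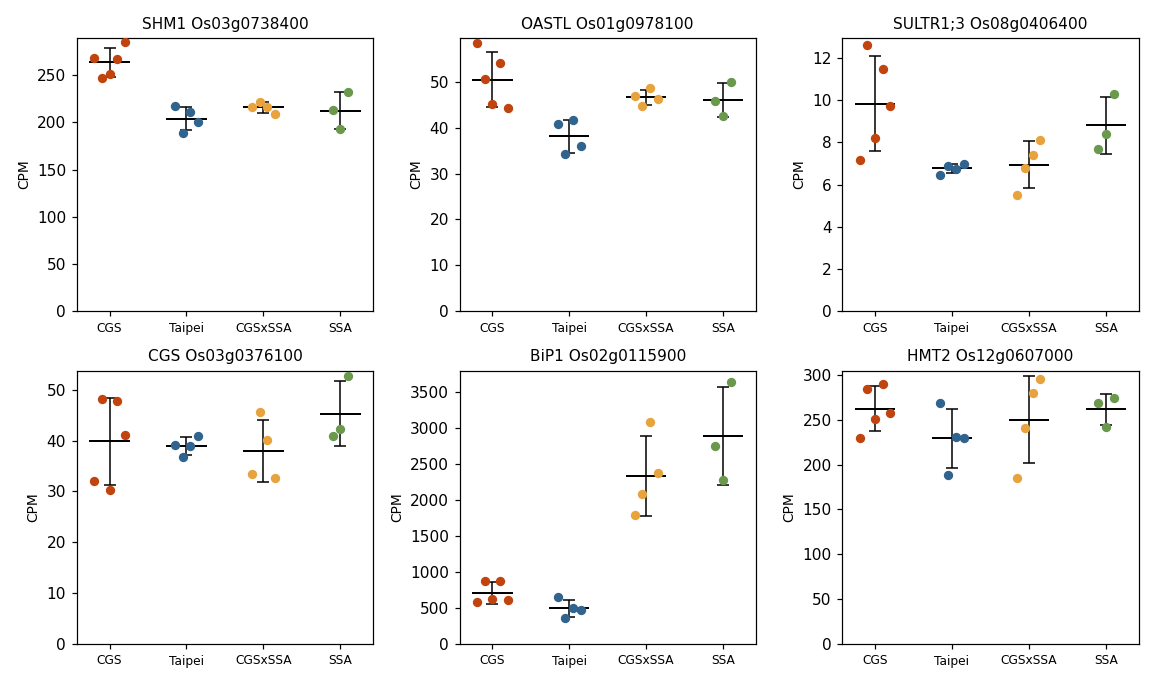
CPM of 6 genes in each library of CGS, Taipei, CGSxSSA and SSA, with the mean (line) and SD (bar) of each line. SHM1 averages 264 CPM in CGS and 204 CPM in Taipei, whereas the rice CGS gene averages 39.8 CPM in CGS and 38.9 CPM in Taipei.

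No sulfate transporter was called with edgeR. Estimates were positive for 11 of the 13 SULTR genes, with a median of 0.24, beside 0.01 over all genes tested. At an unadjusted p under 0.05, 2 were higher and 1 was lower, where 13.3% and 10.8% of all genes tested passed, and DESeq2 called 1 higher, where it called 3.69% of all genes higher and 2.55% lower. That gene was SULTR1;3 (Os08g0406400), with 7.18, 12.6, 8.22, 11.5 and 9.71 CPM in the CGS libraries, against 6.46, 6.88, 6.75 and 6.99 CPM in the Taipei libraries. CGS replicates 2 and 4 were its highest libraries (log2 fold change 0.54, edgeR adjusted p = 0.0208, DESeq2 adjusted p = 0.00781). The log2 fold change was 0.31 without these replicates (adjusted p = 0.23) and 0.30 with unstranded counts (adjusted p = 0.368). In CGSxSSA against SSA, SULTR1;3 was at -0.35 (adjusted p = 0.459), with means of 6.95 and 8.81 CPM. The difference from its change on Taipei was -0.88, which did not pass the threshold (adjusted p = 0.0431). SULTR2;1a (Os03g0195450) was at 0.68 (adjusted p = 0.0291), with 2.66 ± 0.32 CPM in CGS and 1.65 ± 0.409 CPM in Taipei and no overlap of libraries. Its adjusted p was 0.155 without CGS replicates 2 and 4 and 0.0958 without Taipei replicate 1. In CGSxSSA against SSA, SULTR2;1a was at -0.39 (adjusted p = 0.538). SULTR3;2, the most read of the family, was at 0.15 (interval -0.08 to 0.38). The extreme estimates belonged to the scarcely expressed SULTR1;1 (0.77, interval -1.15 to 2.7) and SULTR1;2 (-1.19, interval -2.23 to -0.14), both under 0.5 CPM on average in each line.

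Homocysteine methyltransferases make methionine from S-methylmethionine and homocysteine. None of the 4 HMT genes was called with edgeR or DESeq2, and none had an unadjusted p under 0.05. HMT2, the most read, averaged 263 ± 24.7 CPM in CGS and 229.6 ± 32.8 CPM in Taipei (log2 fold change 0.19, interval -0.06 to 0.45). HMT1 was at 0.65 (interval -0.32 to 1.62) and HMT4 at -0.60 (interval -1.22 to 0.01).

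Lists of other pathway genes were written from general knowledge of rice identifiers, so their members are given as counts. Of 9 genes for methionine synthesis and use, 1 was called higher and none lower, beside 2.34% and 1.36% of all genes tested, with a median of 0.13. The called gene averaged 8.37 ± 0.936 CPM in CGS and 5.64 ± 0.522 CPM in Taipei, with no overlap of libraries (log2 fold change 0.57 ± 0.115 SE, adjusted p = 0.00326). It was no longer called without CGS replicate 2, CGS replicate 4, Taipei replicate 2 or Taipei replicate 4, or without CGS replicates 2 and 4 together, or in a fit of the 9 libraries alone. Another list holds genes that use S-adenosylmethionine, in the Yang cycle, which salvages its methylthio group, in ethylene synthesis and in nicotianamine synthesis. Of its 12 tested genes, 2 were called higher and none lower, beside the same 2.34% and 1.36%, and the median was 0.00. One of them averaged 160 ± 10.1 CPM in CGS and 108 ± 7.23 CPM in Taipei (log2 fold change 0.57 ± 0.065 SE, adjusted p = 9.02e-06). The other was listed, with no annotation to check it, as a nicotianamine synthase, which belongs to neither the Yang cycle nor ethylene synthesis. It averaged 4.8 ± 1.83 CPM in CGS and 2.07 ± 0.208 CPM in Taipei (log2 fold change 1.21 ± 0.252 SE, adjusted p = 0.00451). A single gene of this list was called when CGS replicate 2, 4 or 5 or any 1 Taipei library was left out, also without CGS replicates 2 and 4, and in a fit of the 9 libraries alone.

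No gene of the aspartate pathway (9 tested), which supplies O-phosphohomoserine, and none of 7 glutathione genes was called with edgeR. In the aspartate list 3 were higher and 1 was lower at an unadjusted p under 0.05, and DESeq2 called 1 higher. Of the glutathione genes 3 were higher at that p, and DESeq2 called none. Over all genes tested, 13.3% were higher and 10.8% lower at that p, and DESeq2 called 3.69% higher and 2.55% lower. The medians were -0.06 and 0.12, and the glutathione median was -0.04 without CGS replicates 2 and 4.

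Chaperones and folding enzymes of the endoplasmic reticulum (ER), where storage proteins fold, were not called with edgeR in any of the 24 listed genes, with a median of 0.09. At an unadjusted p under 0.05, 1 was higher and 2 were lower, beside 13.3% and 10.8% of all genes tested, and DESeq2 called 1 lower, beside 2.55%. The median was 0.03 without CGS replicates 2 and 4. BiP1 (Os02g0115900), the Hsp70 of the ER lumen, had 575, 878, 624, 875 and 605 CPM in the CGS libraries, against 649, 359, 497 and 465 CPM in the Taipei libraries. CGS replicates 2 and 4 were high, and the other CGS libraries overlapped with Taipei (log2 fold change 0.53, interval 0.10 to 0.96, adjusted p = 0.113). The most read member, the protein disulfide isomerase PDIL1-1, had 1411, 2072, 1016, 2126 and 1755 CPM in the CGS libraries, against 1467, 1198, 1313 and 1533 CPM in the Taipei libraries (log2 fold change 0.28, interval -0.22 to 0.79). The lowest estimate was at the calreticulin gene Os03g0832200 (-0.27, interval -0.95 to 0.41). DjC16, a J-domain protein, was the gene called lower by DESeq2, with 29.7 ± 1.37 CPM in CGS and 34.4 ± 1.96 CPM in Taipei (log2 fold change -0.21, edgeR adjusted p = 0.0227, DESeq2 adjusted p = 0.00648). Its edgeR adjusted p was 0.114 without CGS replicates 2 and 4 and 0.0704 in a fit of the 9 libraries alone. DjC16 averaged 28.5 CPM in SAT, also under Taipei (log2 fold change -0.27, edgeR adjusted p = 0.0289).

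Storage protein and starch genes were likewise not called with either edgeR or DESeq2. The medians were 0.26 over 12 glutelin genes, 0.19 over 9 prolamin and globulin genes and -0.14 over 12 starch synthesis genes, of which 11 had negative estimates. At an unadjusted p under 0.05, 3 glutelin and 2 prolamin or globulin genes were higher and 4 starch genes were lower, beside 13.3% and 10.8% of all genes tested. Without CGS replicates 2 and 4 the glutelin median was 0.11, the prolamin and globulin median was -0.09 and the starch synthesis median was -0.17. These families share sequence, and only uniquely mapped reads were counted, so single members are uncertain.

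The changes were then followed in CGSxSSA against SSA, which differ in AtD-CGS on the HaSSA background and share no library with CGS against Taipei. CGSxSSA was bred from a cross of CGS with SSA. The transgene, its site of insertion and other differences inherited through the cross cannot be told apart here either. In that comparison 13 genes were higher and 17 were lower, 0.0485% and 0.0634% of the genes tested and 0.112% together, and 19 genes were called without SSA replicate 3. Of the 991 genes called in CGS against Taipei, 609 (61.5%) had the same sign in CGSxSSA against SSA, beside 54.8% of all genes tested, and the share was 60.6% for the 383 genes called without CGS replicates 2 and 4. The sizes were much smaller there. The called higher genes had a median log2 fold change of 0.02 and the called lower genes of -0.07, whereas their medians in CGS against Taipei were 0.56 and -0.64. The genes were chosen by CGS against Taipei, which favours large values there, so part of this drop is set by the choice. At an unadjusted p under 0.05, 95 of the 991 had a difference in the same direction and 33 in the opposite one. The share of all genes tested at that p was not counted for CGSxSSA against SSA, so these counts are descriptions.

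Both comparisons called 6 genes, which is 0.605% of the calls on Taipei and 20% of the calls on the SSA background. Of these, 4 were higher and 1 was lower in both, and 1 changed in opposite directions. Os01g0537250 is among the 4, and the others are given without identifiers. The largest rise in CGS against Taipei averaged 6.93 CPM in CGS and 0.00764 CPM in Taipei, and averaged 8.26 CPM in CGSxSSA and 0.123 CPM in SSA. The other 2 were at or under 1.09 CPM on average in CGS and under 0.03 CPM in Taipei, and neither was called in CGS against SAT. One was at 0.15 on the log2 scale there (adjusted p = 0.853), the other at -1.31 (adjusted p = 0.0144). The shared lower gene averaged 14.3 CPM in CGS and 20.1 CPM in Taipei, with log2 fold changes of -0.49 on Taipei and -0.77 on the SSA background.

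The difference between the 2 effects passed the test for 102 genes (0.38% of those tested). Of these, 83 were also called in CGS against Taipei, each with a difference opposite in sign to its change there. The CGS and Taipei libraries enter both tests, so this direction is partly set by the choice of genes. The CGSxSSA libraries were not alike for the sulfur genes: SDI1 had 20.7 CPM in CGSxSSA replicate 1 and 214, 277 and 282 CPM in replicates 2, 3 and 4. Without CGSxSSA replicate 1, 28 genes were called in CGSxSSA against SSA and 62 in the test of the difference.

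**Figure D5:**
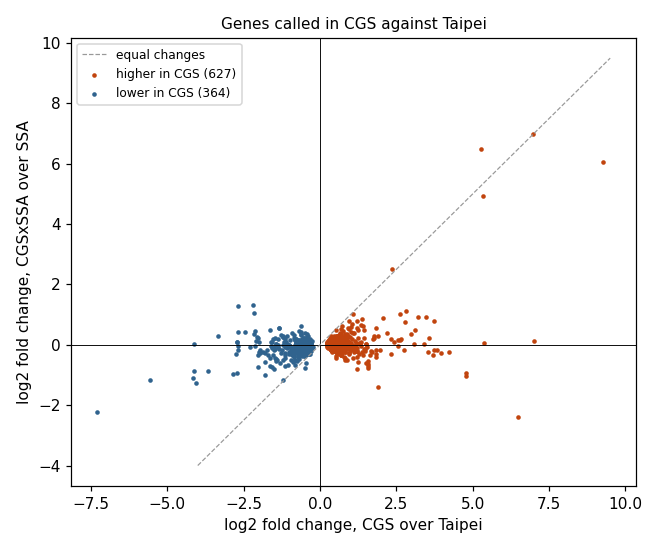
Log2 fold change of CGSxSSA over SSA against that of CGS over Taipei for the 991 genes called in CGS against Taipei, with a dashed line where the changes are equal. Most points lie near 0 on the vertical axis, with medians of 0.02 for the 627 higher and -0.07 for the 364 lower genes, and the few near the dashed line include Os01g0537250.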

How the data were processed

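The authors depleted rRNA from total RNA of milkripe seeds, sequenced strand-specific single-end libraries, aligned them to IRGSP-1.0 with STAR 2.7.1a and deposited raw read counts of uniquely mapped reads for 38866 genes. Totals of reads not counted in a gene stood apart in each file and were left out. Of the reads, 13.6% to 17.4% mapped to several places and 11.8% to 14.8% to no gene in the 9 libraries.

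From the deposited anti-strand counts, 26821 genes passed filterByExpr. A robust quasi-likelihood model of edgeR 4.0.16 under R 4.3.3, with TMM scaling and a term for each line, was fitted to the 22 libraries together and tested two-sided. Sharing the spread over 6 lines narrows the errors if the lines vary alike. Libraries are from separate panicles, each described by the authors as from an individual plant. CPM are counts relative to the scaled library size, errors of log2 fold changes are standard errors, and intervals are at 95%. Genes were called at an adjusted p under 0.01, and DESeq2 1.42.0 was an alternative.

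Genes shown are the called genes of the study's sulfur lists, the extreme and most read members of each list, the rice CGS and SAT genes, members that pass in an alternative, and 4 identifiers from the 14 largest rises and falls with at least 5 CPM. Members and lists were chosen with earlier results of these data known. Marker lists by gene description (embryo, aleurone, green tissue) were not run, since no descriptions were at hand. Alternatives are in the closing section.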

Additional observations from a re-analysis of the deposited data

Results flagged for a closer look

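In 213 groups of 4 or 5 libraries (71 tested genes in CGS, Taipei and CGSxSSA), 16 had 1 library far from the others by Dixon's criterion, where chance gives about 1 in 20. In CGS, replicate 3 was far above the rest at the calreticulin gene Os01g0895600 (38.1 CPM, others 31.2 to 31.7), HMT4 (5.0 CPM, others 1.88 to 2.23), Os01g0537250 (43.9 CPM, others 35.8 to 37.5) and Os08g0127900 (2081 CPM, others 769 to 1030). CGS replicate 5 was low at SULTR5;1 (10.3 CPM, others 18.2 to 20.7), and CGS replicate 4 was high at LSU1 (0.428 CPM, others 0.21 to 0.266). In Taipei, replicate 1 was high at SULTR4;1 (30.7 CPM, others 23.9 to 24.9), and replicate 2 was low at Os03g0299700 (0.611 CPM, others 1.01 to 1.07).

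The remaining 8 were all CGSxSSA replicate 1. It was low at CNX (792 CPM, others 852 to 862), BiP4 (100.3 CPM, highest of the others 158), SULTR4;1 (33.2 CPM, others 87.3 to 95.1), HMT3 (1.79 CPM, others 10.2 to 11.7), ChaCL1 (359 CPM, others 706 to 729) and SDI2 (25.8 CPM, others 55 to 59), and high at SULTR3;2 (112 CPM, others 77.9 to 82.9) and Os03g0299700 (43.7 CPM, others 36.7 to 37).

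The change from SSA to CGSxSSA differed from that from Taipei to CGS by a tested difference for Os08g0127900 (difference 2.59 on the log2 scale). Os03g0299700 passed the same test with a difference of -5.31. Its mean was 37.4 CPM in SSA and 42.1 CPM in SAT, which lack AtD-CGS, against 38.2 CPM in CGS. Taipei alone was low at this gene (0.931 CPM), and what sets it apart was not tested.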

How the results depend on the processing

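The count of genes called in CGS against Taipei (991), CGSxSSA against SSA (30), the difference between these effects (102) and CGS against SAT (905) was recomputed under each setting. DESeq2 called 1673, 79, 317 and 1446 genes, and an adjusted p under 0.05 gave 2476, 57, 363 and 2059. A mean above 100 normalized counts, which tests fewer genes, gave 12 in CGSxSSA against SSA and 67 for the difference. Fits of only the groups compared gave 367 in CGS against Taipei and 352 in CGS against SAT. With CGS replicates 2 and 4 summed, 582 genes were called in CGS against Taipei, and 383 with both left out. Leaving out 1 library gave 493 to 1058, 19 to 28, 46 to 122 and 473 to 1041 genes in the 4 comparisons. The cause of these changes was not tested beyond what each setting itself alters.

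With the replicate number as a block, in which CGS replicate 5 has no partner, 597 genes were called in CGS against Taipei, 48 for the difference, 468 in CGS against SAT and 26 in CGSxSSA against SSA. Replicates with the same number did not deviate together (correlations of -0.18, -0.23, -0.05 and 0.00 between CGS and Taipei), so the numbers were not taken to pair the samples.

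Library size without TMM called 678 genes in CGS against Taipei, of which 71.5% were higher, against 63.3% with TMM. In CGSxSSA against SSA the split was 10 higher and 23 lower, against 13 and 17, with the median of all genes at -0.10. For the difference it was 20 higher and 80 lower, against 32 and 70, with the median at -0.12. No gene called in a comparison was called in the opposite direction in any setting. Among the named genes, OASTL and SHM1 were the calls that some setting removed, and DjC16, SULTR1;3, SULTR2;1a and ChaCL2 passed in some setting. At this depth, genes under 1 CPM and small changes are the least certain.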
